A study of Mus musculus with 24 samples.

Results

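The glutamate and GABA receptor subunits are the genes whose proteins assemble into the ionotropic and metabotropic receptors of fast and slow transmission in the brain. The set was chosen by name, as the probe sets whose annotated symbol is exactly 1 of 32 listed genes, with the probe set of highest mean over the 24 arrays standing for each gene. Of the 32 genes, 30 were analysed, out of 18193 genes in all, and Grin1 and Gabbr2 were not analysed here. The 30 genes comprise 4 AMPA, 5 kainate, 5 NMDA, 6 metabotropic glutamate, 9 GABA-A and 1 GABA-B subunits. They were covered by 69 probe sets, with more than 1 for 21 of the genes.

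RNA came from mouse embryonic cortical neurons, and every group carried the same Il1rap-/- genotype, which removes AcP, the accessory chain through which the IL-1 receptor signals. The neurons were made to express CD25, which belongs to the IL-2 receptor and served as the arm without an accessory chain, or AcP, or AcPb, a neuronal isoform of AcP, or AcP and AcPb together. Cells of each arm then spent 4 h with 10 ng/ml IL-1b or with the control stimulus, and 3 arrays represent each of the 8 groups. The series addressed how AcPb alters the response of neurons to IL-1b, and for the receptor subunits the comparison put first was IL-1b against control in neurons with AcPb alone. How the receptor chains were introduced, and whether the 3 arrays of a group stem from different cultures or embryos, is not stated in the labels. The p-values therefore measure the spread between these arrays alone, and that spread may be technical.

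Glutamate opens AMPA, kainate and NMDA channels, which excite the neuron and let calcium in to different extents, and it acts more slowly through metabotropic receptors coupled to G proteins. GABA opens GABA-A channels, pentamers of alpha, beta and gamma or delta subunits, and acts on G protein-coupled GABA-B receptors. The subunit makeup of these receptors shifts as cortical neurons mature, so subunit messages also follow developmental stage and cell composition.

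RefSeq promoter sequences of assembly GRCm38.p6 were at hand for 21 of the 30 genes. The 4 shown are those of the kainate subunits Grik2 and Grik3 and the GABA-A subunits Gabrb2 and Gabrg3, around whose levels the results below turn. Each is the 250 bases before the annotated start, read 5′ to 3′ on the strand of the gene, with CpG dinucleotides in capitals. Grik2 lies on the minus strand (chr10:49788755-49789004), Grik3 on the plus strand (chr4:125490446-125490695), Gabrb2 on the plus strand (chr11:42420190-42420439, 1 of 3 annotated starts) and Gabrg3 on the minus strand (chr7:57387216-57387465).
Grik2: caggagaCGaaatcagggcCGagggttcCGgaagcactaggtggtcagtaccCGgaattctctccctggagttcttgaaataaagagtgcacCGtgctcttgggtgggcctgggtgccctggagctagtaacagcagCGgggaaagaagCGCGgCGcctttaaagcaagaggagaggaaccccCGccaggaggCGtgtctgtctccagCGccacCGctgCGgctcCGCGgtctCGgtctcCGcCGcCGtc
Grik3: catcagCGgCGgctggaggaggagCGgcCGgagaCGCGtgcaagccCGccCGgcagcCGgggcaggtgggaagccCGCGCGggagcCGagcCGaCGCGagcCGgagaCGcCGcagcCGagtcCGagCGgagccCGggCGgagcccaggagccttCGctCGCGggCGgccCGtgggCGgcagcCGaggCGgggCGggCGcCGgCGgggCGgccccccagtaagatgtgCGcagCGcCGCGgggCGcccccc
Gabrb2: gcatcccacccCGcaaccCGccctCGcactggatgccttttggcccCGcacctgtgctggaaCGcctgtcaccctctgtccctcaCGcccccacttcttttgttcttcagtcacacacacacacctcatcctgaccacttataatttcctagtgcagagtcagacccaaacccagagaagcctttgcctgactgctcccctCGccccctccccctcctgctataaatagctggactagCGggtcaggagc
Gabrg3: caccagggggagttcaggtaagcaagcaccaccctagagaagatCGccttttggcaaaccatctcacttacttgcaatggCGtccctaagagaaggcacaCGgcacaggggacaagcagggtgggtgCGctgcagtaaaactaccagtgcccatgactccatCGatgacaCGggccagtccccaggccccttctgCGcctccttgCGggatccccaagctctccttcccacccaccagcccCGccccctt

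The Grik3 stretch held 42 CpG and the Grik2 stretch 20, while Gabrg3 held 9 and Gabrb2 held 8, against a median of 6 over 32851 promoters. Both strands of the 28 promoter entries of the subunit genes, each 300 bases long, were searched for 3 motifs that do not overlap in their letters. The NF-kB motif, read as GGG, any 3 bases and TTCC, was found in 1 entry, that of Gabra5, and in 5.56% of all promoters. The cAMP response element TGACGTCA was found in none of the 28 and in 1.79% of all promoters. The left part of the RE1 element, TTCAGCACC, was found in 1 entry, that of Grm2, and in 0.371% of all promoters. None of the 3 motifs was in the 4 sequences printed, which says only that these letters are not in those windows.

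The deposited values are linear intensities that can fall below 0, with array medians between 55.1 and 66.5. The mean correlation among the 3 arrays of a group was 0.976 to 0.987. After dim genes were left out 14217 genes were tested, among them 29 of the 30 subunits. Grin2c, an NMDA subunit of the mature cerebellum, did not pass, with group means between -2.22 and 16.7. Detection calls were not used, so a low reading does not separate a dim gene from one that is off. Precision is limited by the 3 arrays a group. Intensities of different genes are not comparable as levels, and no order between genes was drawn. Over the 8 group means, the median range of the 29 genes was 0.41 log2 units, beside 0.35 over all genes tested.

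In neurons with AcPb alone, no receptor subunit passed the test for a response to IL-1b. The mean shifts were small: the kainate subunits Grik2 and Grik3 lay higher with IL-1b, by 46.9% and 20.5%, while the AMPA subunit Gria2, the metabotropic receptor Grm3 and the GABA-A subunit Gabrb2 lay lower, at changes of -14.1%, -20.6% and -12.6%. Called here means an adjusted p under 0.05 by limma, with Benjamini-Hochberg adjustment over all genes tested. By that rule 0 of 29 subunits were called, as was 1 of all 14217 genes, which is 0.00703%. At an unadjusted p under 0.05 there were 7 of 29 subunits (24.1%), beside 11% of all genes. The 3 IL-1b arrays lay wholly above or below the 3 controls in 11 of 29 subunits (37.9%), beside 23.1% of all genes. Of these, 4 lay higher (13.8%, beside 10.2% of all genes) and 7 lower (24.1%, beside 12.9%). For 1 gene by itself, the smallest two-sided p of an exact permutation test on 3 and 3 arrays is 0.1. The median change of the 29 subunits was -0.04 log2 units, beside -0.004 over all genes, and the median size of a change was 0.13 beside 0.10. Changes are on the scale of log2(intensity + 16), which understates those of dim genes, and are given with their standard error. A fit that weights arrays by quality called 4 subunits, Grik2, Grm3, Gria2 and Gabrb2, and 180 of all genes.

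AMPA receptors carry most fast excitatory current, and Gria2 is the subunit that makes them nearly impermeable to calcium. Gria2 read 3145, 2976 and 3031 in the AcPb controls and 2729, 2641 and 2493 with IL-1b (n = 3 each). All IL-1b arrays lay below all controls, a difference of -0.22 ± 0.064 log2 units (95% interval -0.35 to -0.085, adjusted p = 0.24). Both further probe sets of Gria2 gave 0.05 and 0.09, so the direction rests on the brightest probe set. Gria4, a subunit of early cortical circuits, read 459, 506 and 463 in controls and 442, 408 and 403 with IL-1b. Its IL-1b arrays also lay below the controls, at -0.18 ± 0.087 (adjusted p = 0.46). The further AMPA subunits Gria1 and Gria3 gave -0.056 and 0.064, and the median of the 4 AMPA genes was -0.12.

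Kainate receptors tune transmitter release and excitability, and the class divides into subunits that form channels by themselves (Grik1, Grik2, Grik3) and partners that do not (Grik4, Grik5). The 3 subunits of the first kind had positive mean changes with IL-1b and the 2 partners negative ones, none of them called. A split by kind was not tested. In neurons with both chains all 5 kainate genes had a positive change. Grik2 read 209, 198 and 212 in controls and 285, 323 and 325 with IL-1b, groups that lay apart, a difference of 0.56 ± 0.15 log2 units (95% interval 0.25 to 0.86, adjusted p = 0.2). Its other probe set, with a mean of 66.2 over the arrays, gave -0.16 (adjusted p = 0.94 over probe sets). Grik3 read 582, 674 and 694 in controls and 761, 767 and 827 with IL-1b. These groups lay apart as well, at 0.27 ± 0.083 (adjusted p = 0.25). Grik1 read 165, 212 and 201 and then 257, 234 and 249, with every IL-1b array above every control and a difference of 0.34 ± 0.13 (adjusted p = 0.33). Grik4 and Grik5 gave -0.13 and -0.15, and the class median was 0.27 over 5 genes.

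NMDA receptors are the calcium-permeable channels of synaptic plasticity, and Grin2b is the subunit that dominates before birth. Grin2b read 1644, 1572 and 1464 in controls and 1399, 1292 and 1412 with IL-1b, which lay apart in the lower direction at -0.19 ± 0.11 (adjusted p = 0.57). Grin2d, a second early subunit, read -73.5, -7.11 and -70.7 in controls and 44.8, 21.2 and 72.99 with IL-1b. Its difference of 1.87 ± 0.98 (adjusted p = 0.5) starts from values below 0, depends on the added constant, and is given as no fold. Its readings over the 24 arrays ran from -82.5 to 186, and it was not above 0 in any AcPb control. Grin2a, the subunit of mature synapses, and Grin3a, which lowers calcium flow, gave 0.075 and -0.015.

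Grm3 is a metabotropic receptor of neurons and astrocytes that lowers cyclic AMP. It had the lowest unadjusted p of the 29 subunits in this comparison. Grm3 read 724, 696 and 746 in controls and 653, 531 and 533 with IL-1b. Each IL-1b array lay below each control, at -0.33 ± 0.085 log2 units (95% interval -0.51 to -0.15, adjusted p = 0.2). Of the other metabotropic genes, Grm4 and Grm7, presynaptic brakes on release, gave -0.035 and -0.093, and the postsynaptic Grm5 gave -0.027. Grm8 gave 0.14, and Grm2, whose values straddle 0, gave -0.98. The class median was -0.06, with 5 of 6 genes in the lower direction, while 48.7% of all genes had a positive change.

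Among GABA-A subunits, beta subunits such as Gabrb1 and Gabrb2 line the GABA binding site. Gabrb2 read 1744, 1736 and 1794 in controls and 1459.6, 1534 and 1612 with IL-1b, which lay apart at -0.19 ± 0.050 (95% interval -0.30 to -0.089, adjusted p = 0.2). Its 4 further probe sets gave -0.30, -0.40, -0.04 and 0.04, none called. Gabrb1 read 1626, 1476 and 1451 and then 1465, 1253 and 1256. The highest Gabrb1 array with IL-1b lay within the controls, at -0.20 ± 0.075 (adjusted p = 0.34). The other 7 GABA-A genes stayed between -0.13 for Gabrg3 and 0.16 for Gabra5, and the class median was -0.02. Gabbr1, the GABA-binding chain of the GABA-B receptor, gave -0.091 ± 0.064 (adjusted p = 0.62).

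Of the markers of cell types in these cultures, the sum of the neuron markers lay slightly lower with IL-1b in AcPb neurons. The sums for progenitor and dividing cells and for endothelial, mural and fibroblast cells lay higher, all without a call. Sums of the excitatory, inhibitory, astrocyte, oligodendrocyte lineage and microglia markers overlapped between control and IL-1b. A sum is carried by its brightest markers. Neuron markers summed to 41360 to 43170 intensity units in the 3 AcPb controls and to 39870 to 40290 with IL-1b. Of 10 such markers 0 were called, 3 had an unadjusted p under 0.05 in the lower direction, and their median change was -0.08. Progenitor and dividing cell markers summed to 7221 to 7705 in controls and to 8003 to 8235 with IL-1b. Of the 9 tested, 0 were called and 0 had an unadjusted p under 0.05. Their changes ran from -0.18 to 0.16, with a median of 0.03. Endothelial, mural and fibroblast markers summed to 1273 to 1456 in controls and to 1560 to 2075 with IL-1b, with 0 of 7 tested markers called. Of the endothelial markers in that list, Pecam1 and Cldn5 averaged at or below 0 in both groups. The part of these shifts in the subunit values was not tested, and in bulk RNA fewer cells of a type cannot be told apart from less RNA per cell.

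The same 29 subunits were followed in the other arms, whose responses share no arrays with that of AcPb. No subunit was called in CD25 neurons, where 0% of genes were called and 859 genes had an unadjusted p under 0.05. None was called in AcP neurons, where 77 genes were called (0.542%), or in neurons with AcP and AcPb, where 65 were (0.457%). At an unadjusted p under 0.05 there were 1 of 29 subunits with CD25 (3.45%, beside 6.04% of all genes), 1 with AcP (beside 8.79%) and 4 with AcP and AcPb (13.8%, beside 11.1%). The IL-1 response genes are a list of 10 chemokine, NF-kB and acute phase genes. The list was chosen with earlier results of these data known, so it is no separate check of where IL-1b acted. It also cannot show whether IL-1b acted on genes outside it. Of these, 9 rose with AcP and 9 with AcP and AcPb, by a median over the 10 of 3.27 and 2.50 log2 units, and 0 were called with CD25 or with AcPb alone.

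In CD25 neurons Grik2 was the subunit of lowest p, and its direction was opposite to that in AcPb neurons. Grik2 read 333, 356 and 366 in CD25 controls and 313, 301 and 225 with IL-1b, which lay apart at -0.33 ± 0.15 (adjusted p = 0.82). Gabra5, an alpha subunit of receptors outside synapses, read 1776, 1975 and 1872 and then 1566, 1272 and 1889.8, with overlapping arrays at -0.27 ± 0.14 (adjusted p = 0.86). Grik3 read 825, 905 and 765 and then 776, 747 and 754, also overlapping, at -0.13 ± 0.083 (adjusted p = 0.87).

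In AcP neurons, where IL-1b raised 9 of the 10 IL-1 response genes, no subunit was called, and the median size of a change was 0.098 log2 units, beside 0.088 over all genes. Gabrb1 read 1533, 1283 and 1379 in AcP controls and 1291, 1148 and 1209 with IL-1b, overlapping at -0.20 ± 0.075 (adjusted p = 0.42), the same size as with AcPb alone. Grm7, a presynaptic receptor, read 1453, 1293 and 1379 and then 1304, 1224 and 1263, at -0.12 ± 0.058 (adjusted p = 0.58), with 1 IL-1b array above the lowest control. Grin2a read 52.05, 40.4 and 30.7 and then 29.2, 35.1 and 30.5, at -0.25 ± 0.13 (adjusted p = 0.61), again with overlap. The responses of Grik2 and Grik3 in AcP neurons were 0.17 and 0.0055.

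In neurons with both chains, all 5 kainate genes had a positive change (median 0.26) and all 6 metabotropic genes a negative one (median -0.14). None of these was called, and the highest metabotropic change, at -0.00014, was practically none. Over all genes, 51.6% had a positive change. Grik3 read 669.9, 602 and 646 in controls and 754, 777 and 784 with IL-1b, which lay apart at 0.27 ± 0.083 (adjusted p = 0.21), the same size as with AcPb alone. Grm7 read 1388, 1357 and 1259 and then 1184, 1214 and 1183, apart in the lower direction at -0.16 ± 0.058 (adjusted p = 0.29). Gria4 read 508, 539 and 496 and then 458, 454 and 437, apart as well at -0.19 ± 0.087 (adjusted p = 0.44). The change of Grik2 was 0.28 (adjusted p = 0.48). The AcP+AcPb controls span 2 codes in the array names, and with the code as a block the change of Grik3 was 0.25 (adjusted p = 0.94), 0 subunits were called, and 23 of all genes were, in place of 65. Groups lay apart in 7 of 29 subunits (24.1%), beside 18.2% of all genes.

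Direction was the same with AcPb alone and with AcP and AcPb in 20 of 29 subunits (69%), beside 61.2% of all genes. It was the same with AcPb and AcP in 16 (55.2%, beside 52.1%) and with AcPb and CD25 in 10 (34.5%, beside 42.3%). The difference between responses was itself tested, and 0 of 29 subunits were called in any of its 3 forms. Against CD25, 3 of all genes were called (0.0211%), against AcP 37 (0.26%), and against AcP with AcPb 18 (0.127%). At an unadjusted p under 0.05 the subunits numbered 9 of 29 against CD25 (31%, beside 11.2% of all genes), 3 against AcP (10.3%, beside 8.34%) and 0 against AcP with AcPb (beside 5.5%).

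The AcPb response of Grik2 exceeded that in CD25 neurons by 0.88 ± 0.21 log2 units (95% interval 0.45 to 1.31, adjusted p = 0.19), that of Grik3 by 0.40 ± 0.12 (adjusted p = 0.27), and that of Gabrb2 was lower, at -0.23 ± 0.071 (adjusted p = 0.29). Against AcP the lowest p-values were those of Gabrb2 at -0.22 ± 0.071 (adjusted p = 0.4), Grm3 at -0.35 ± 0.12 (adjusted p = 0.43) and Grik3 at 0.26 ± 0.12 (adjusted p = 0.55). Against AcP with AcPb they were Gria2 at -0.17 ± 0.090 (adjusted p = 0.93), Grm3 at -0.19 ± 0.12 (adjusted p = 0.97) and Gabrb2 at -0.094 ± 0.071 (adjusted p = 0.97). None passed the test, which does not show that the arms respond alike: the interval for Grik3 against AcP with AcPb ran from -0.24 to 0.25 and that for Grik2 from -0.16 to 0.71.

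Between arms without IL-1b, subunits did pass the test. Against CD25 controls, the kainate subunit Grik3 was lower in all 3 other arms and the GABA-A subunit Gabrb2 higher in all 3. Grik2 and Gabrd were lower in 2 arms each, and Gabrg1 and Gabrg3 higher in 2 arms each. Called subunits numbered 6 of 29 (20.7%) with AcPb, beside 7.62% of all genes. They were 7 of 29 (24.1%) with AcP, beside 15.5%, and 6 of 29 (20.7%) with AcP and AcPb, beside 18.7%, so in that last arm the share was near the background. The 3 comparisons share the CD25 control arrays, so their values are set side by side and not counted as repeats, and the AcPb controls also enter the AcPb response. With array medians centred, or with only the compared arrays in the fit, the calls with AcPb were Gabrd, Grik2 and Gabrg1. With AcP they were Gabrb2, Gabrd and Grik3 after centring (1 higher and 2 lower, in place of 5 and 2), and none with only the compared arrays.

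The CD25 controls stood apart in other genes too. The IL-1 response genes summed to 4589 to 5039 intensity units in the CD25 controls, against 2890 to 3179 with AcPb, 2962 to 3271 with AcP and 3085 to 3636 with both. Of these 10 genes, 5, 5 and 4 were called lower than in CD25, and Cebpd, an acute phase transcription factor, averaged 823.5 in the CD25 controls and 76.9 with AcPb. Progenitor and dividing cell markers summed to 10950 to 11770 in the CD25 controls, 7221 to 7705 with AcPb, 5629 to 6896 with AcP and 6165 to 7309 with both. Of the 9 tested, 4, 5 and 6 were called lower, and Hes5 was called higher in all 3. The intermediate filament Gfap averaged 1935 in the CD25 controls, 568.5 with AcPb, 482.1 with AcP (both called lower) and 1360 with both (not called), while the median over the 10 astrocyte markers lay slightly above CD25, at 0.084, 0.092 and 0.10 log2 units. All arrays of the CD25, AcP and AcPb arms carry 1 code in their array names, whose meaning is not given, and the AcP+AcPb arrays carry 2 others. For every difference between AcP+AcPb and CD25, arm and code cannot be told apart. The part of these features in the subunit differences was not tested.

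Gria3 was the only AMPA gene called. Gria3 read 840.3, 722 and 705 in CD25 controls and 544, 569 and 595 in AcPb controls, which lay apart, at -0.40 ± 0.11 log2 units (adjusted p = 0.039). The call was lost when any 1 of the 6 arrays was left out (adjusted p = 0.057 to 0.16), and the other Gria3 probe set gave -0.02. In the AcP controls Gria3 read 724, 661 and 917 and gave 0.012 against CD25.

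Grik2 and Grik3 carried the kainate differences. Grik2 read 333, 356 and 366 in CD25 controls, 209, 198 and 212 with AcPb, 231, 271 and 357 with AcP and 236, 288 and 237 with both. The AcPb arrays were the lowest and the most uniform. Against CD25, Grik2 fell, at -0.72 ± 0.15 with AcPb (adjusted p = 0.0043) and -0.45 ± 0.15 with both (adjusted p = 0.038), and with AcP it was not called at -0.30 ± 0.15 (adjusted p = 0.18). Leaving out any 1 array kept the AcPb call (adjusted p = 0.01 to 0.023). The call with both chains was lost without AcP+AcPb control 1 or 3 or any CD25 control (adjusted p up to 0.11). The second Grik2 probe set gave 0.40 with AcPb (adjusted p = 0.69 over probe sets), against the direction of the first. With the mean over both probe sets the AcPb and AcP+AcPb calls were lost, at -0.16 and -0.20 (adjusted p = 0.8 and 0.64).

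Grik3 read 825, 905 and 765 in CD25 controls, 582, 674 and 694 with AcPb, 675, 569.7 and 740.4 with AcP and 669.9, 602 and 646 with both. Every array of the 3 arms lay below every CD25 control. The differences were -0.35 ± 0.083 (adjusted p = 0.013), -0.33 ± 0.083 (adjusted p = 0.011) and -0.37 ± 0.083 (adjusted p = 0.0046). The AcPb call was lost without CD25 control 2 or AcPb control 1 (adjusted p up to 0.085) and the AcP call without CD25 control 2 or AcP control 2 (adjusted p up to 0.069). With both chains it held without any 1 array (adjusted p = 0.0051 to 0.03). The mean over the Grik3 probe sets gave -0.17 with AcPb, where the call was lost (adjusted p = 0.053), and -0.16 and -0.18 with AcP and both, where it held. The second of the 2 Grik3 probe sets added no difference to these means, so they are no separate check. Of the 5 kainate genes, 3, 4 and 4 had negative differences with AcPb, AcP and both, with medians of -0.21, -0.14 and -0.36. Over all genes, 50.2%, 52.4% and 46.8% had positive differences in those arms.

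No NMDA gene was called among the controls. Of the metabotropic genes, Grm3 and Grm7 were called higher with AcP and in no other arm, and whether AcP differs in them from the other arms was not tested. Grm3 read 671, 714 and 734 in CD25 controls and 919.7, 851 and 823 in AcP controls, which lay apart at 0.28 ± 0.085 (adjusted p = 0.03). Grm7 read 1171, 1201 and 1186 and 1453, 1293 and 1379, apart as well at 0.21 ± 0.058 (adjusted p = 0.019). The Grm3 call was lost without CD25 control 1 or 2 or AcP control 1 or 2 (adjusted p up to 0.11). The Grm7 call was lost without CD25 control 1 or 3 or AcP control 1 (adjusted p up to 0.088), and the mean over the Grm7 probe sets gave -0.071. With AcPb and with both chains Grm3 gave 0.031 and 0.18, and Grm7 gave 0.034 and 0.17.

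The GABA-A class makes up 9 of the 29 subunits tested. Of the subunits called higher than in CD25, it held 2 of 2 with AcPb, 3 of 5 with AcP and 4 of 4 with both. Whether the class differs from the other subunits was not tested. Of its 9 genes, 6, 7 and 7 had positive differences from CD25 with AcPb, AcP and both, 2, 3 and 4 were called higher, and 1, 1 and 0 were called lower. Over all genes, 50.2%, 52.4% and 46.8% had positive differences. Background shares for higher calls were 2.36%, 6.86% and 6.81% of all genes, and for lower calls 5.25%, 8.68% and 11.9%. The class medians were 0.17, 0.13 and 0.17. Members of the class lie in clusters of neighbouring genes: Gabrg1 is next to Gabra2, Gabra4 next to Gabrb1, with 1 gene between Gabra2 and Gabra4, and Gabrg3 is next to Gabra5.

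Gabrb2 read 1465, 1513 and 1550.2 in CD25 controls, 1744, 1736 and 1794 with AcPb, 2008, 1855 and 1977 with AcP and 1986, 2070.3 and 2036 with both. Each array of the 3 arms lay above each CD25 control, and those of AcP and of both lay above those of AcPb. The differences from CD25 were 0.22 ± 0.050 (adjusted p = 0.011), 0.36 ± 0.050 (adjusted p = 6.8e-05) and 0.42 ± 0.050 (adjusted p = 1.9e-05). Its 4 further probe sets were also positive with both chains, at 0.39, 0.32, 0.24 and 0.58, of which the first was called among probe sets (adjusted p = 0.0061). The AcPb call was lost without CD25 control 1 or AcPb control 3 (adjusted p up to 0.054). The AcP call was lost only when the fit held no other arrays (adjusted p = 0.059), and that with both chains held under every alternative tried.

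The gamma subunits anchor GABA-A receptors at synapses, and Gabrg1 and Gabrg3 are the less common ones. Gabrg1 read 261, 216 and 242 in CD25 controls, 338, 320.2 and 318 with AcPb and 302, 297 and 341 with AcP. Both arms lay above CD25, by 0.42 ± 0.097 (adjusted p = 0.011) and 0.37 ± 0.097 (adjusted p = 0.015). Both calls were lost without CD25 control 2, at adjusted p = 0.064 and 0.077. Gabrg3 read 105, 77.8 and 95.8 in CD25 controls, 152, 117 and 147 with AcPb, 188, 93.9 and 206 with AcP and 192, 206 and 169 with both. With AcPb every array lay above every CD25 control, but Gabrg3 was not called, at 0.51 ± 0.20 (adjusted p = 0.15). With both chains every array lay above every CD25 control, at 0.92 ± 0.20 (adjusted p = 0.0041), whereas AcP control 2 lay within the CD25 range, at 0.66 ± 0.20 (adjusted p = 0.035). The AcP call was lost without CD25 control 2 or 3 or AcP control 1 or 3 (adjusted p up to 0.14). With both chains it held without any 1 array (adjusted p = 0.0074 to 0.023). The 3 further Gabrg3 probe sets gave 1.07, 0.90 and 0.73 with both chains.

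Of the alpha subunits, which set drug sensitivity and kinetics, Gabra3 and Gabra4 were called with both chains. Gabra3, an alpha subunit of the immature cortex, read 362, 313 and 362 in CD25 controls and 494, 479 and 562 with both, which lay apart at 0.54 ± 0.15 (adjusted p = 0.015). Gabra4, found in receptors outside synapses, read 664, 626 and 658 and 796, 739 and 753, apart at 0.23 ± 0.070 (adjusted p = 0.031). The Gabra3 call was lost without CD25 control 2 or AcP+AcPb control 3 (adjusted p up to 0.063), and the Gabra4 call without any 1 of the 6 arrays (adjusted p = 0.053 to 0.1). Further probe sets gave 0.65 for Gabra3 and 0.26 for Gabra4, both called among probe sets.

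Gabrd encodes the delta subunit of receptors that respond to ambient GABA outside synapses. Gabrd read 98.8, 95.8 and 95.4 in CD25 controls, 44.4, 55.4 and 62.1 with AcPb, 67.9, 64.7 and 81.6 with AcP and 78.5, 90.05 and 98.1 with both. The AcPb and AcP arrays all lay below CD25, and those of AcPb also below those of AcP. Gabrd fell, at -0.70 ± 0.10 with AcPb against CD25 (adjusted p = 0.00024), the lowest adjusted p of the 29 subunits in that comparison, and at -0.37 ± 0.10 with AcP (adjusted p = 0.019). The AcPb call held without any 1 array (adjusted p = 0.00035 to 0.0021), but with the mean over the Gabrd probe sets it was lost, at -0.39 (adjusted p = 0.13). The AcP call was lost without CD25 control 1 or AcP control 1 or 2 (adjusted p up to 0.087), and the mean over the Gabrd probe sets gave 0.14 there. Gabrd is dim, at group means of 52.1 to 96.7, and its other probe set was too dim to test.

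**Figure D1:**
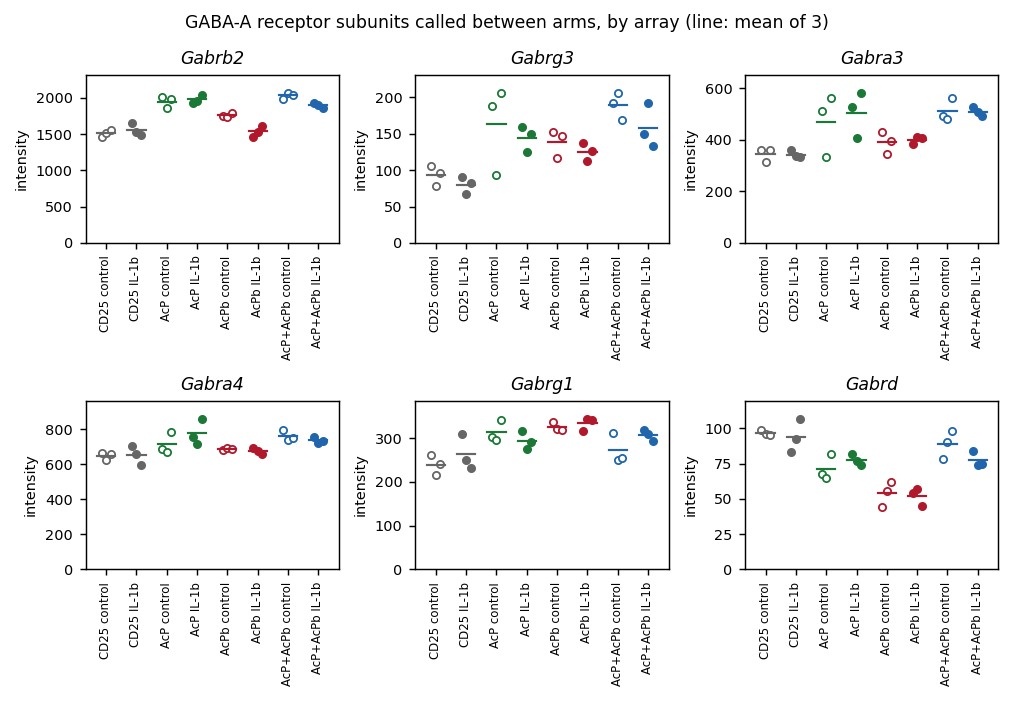
Intensity (linear units, vertical axis from 0) of GABA-A subunits over the 4 arms, without (open circles) and with IL-1b (filled circles), each circle 1 array and each line the mean of 3. Without IL-1b, Gabrb2 lies higher in the other arms than in CD25, while with IL-1b its AcPb arrays overlap those of CD25. Gabrd lies lowest in AcPb with and without IL-1b.

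The arms were then compared on separate arrays, those with IL-1b, in comparisons added after the data had been seen. With AcPb 1 of 29 subunits was called (3.45%), beside 3.62% of all genes, with AcP 5 (17.2%, beside 11.5%), and with both 4 (13.8%, beside 12.8%). The 1 subunit with AcPb was Gabrd, which read 83.2, 92.5 and 107 in CD25 and 54.4, 56.8 and 45.05 in AcPb neurons given IL-1b. The groups lay apart, at -0.69 ± 0.10 (adjusted p = 0.00055) beside -0.70 without IL-1b, and the call was lost only when the fit held no other arrays (adjusted p = 0.072). The other subunits called without IL-1b in AcPb neurons were not called with it. Grik2 gave 0.16 ± 0.15 (adjusted p = 0.66) and Grik3 0.048 ± 0.083 (adjusted p = 0.84). Gabrb2 gave -0.016 ± 0.050 (adjusted p = 0.91), Gabrg1 0.33 ± 0.097 (adjusted p = 0.066) and Gria3 -0.29 ± 0.11 (adjusted p = 0.19). The sign was the same with and without IL-1b in 11 of 29 subunits (37.9%), beside 56.9% of all genes.

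In AcP neurons the called subunits with IL-1b were Gabrb2, Gabrg3, Gabra3, Grm3 and Gabra4, all higher than in CD25, and 3 of them (Gabrb2, Gabrg3 and Grm3) were also called without IL-1b. Gabrb2 read 1655, 1525 and 1479.8 in CD25 and 1931, 1955 and 2043 in AcP neurons with IL-1b, apart at 0.35 ± 0.050 (adjusted p = 0.00018). Gabrg3 read 90.8, 67.2 and 82.5 and 159.6, 124 and 149.7, apart at 0.74 ± 0.20 (adjusted p = 0.023). These are the beta and gamma subunits that also differed among the controls. Gabra3 read 360.0, 337 and 332 and 528, 407 and 584 (0.53 ± 0.15, adjusted p = 0.026), and Gabra4 read 704, 658 and 594 and 757, 716 and 861 (0.25 ± 0.070, adjusted p = 0.028). Grm3 read 747, 687 and 679.5 and 939, 867 and 813 (0.30 ± 0.085, adjusted p = 0.027). All of these groups lay apart. The Gabrg3, Gabra3 and Gabra4 calls were lost without CD25 IL-1b array 2 or 3 or AcP IL-1b array 1 or 3, and that of Grm3 without CD25 IL-1b array 2 or 3 or AcP IL-1b array 1 or 2 (adjusted p up to 0.15 over the 4 genes). With no other arrays in the fit, those of Gabra3, Grm3 and Gabra4 were lost (adjusted p = 0.095, 0.096 and 0.21), and that of Gabra4 also with centred medians and with the mean of its probe sets (adjusted p = 0.064 and 0.11). The sign was kept in 22 of 29 subunits (75.9%), beside 68.4% of all genes.

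With both chains the called subunits with IL-1b were Gabrb2, Gabrg3, Gabra3 and Grin3a, and all but Grin3a were also called without it. Gabrb2 read 1929, 1897 and 1854 against the CD25 values above, apart at 0.28 ± 0.050 (adjusted p = 0.0011), a call lost when the fit held no other arrays (adjusted p = 0.074). Gabrg3 read 149.6, 192 and 133, apart at 0.85 ± 0.20 (adjusted p = 0.0093), a call lost without AcP+AcPb IL-1b array 2 (adjusted p = 0.058) and when the fit held no other arrays (adjusted p = 0.052). Gabra3 read 528, 506 and 493, apart at 0.55 ± 0.15 (adjusted p = 0.02). The Gabra3 call was lost without CD25 IL-1b array 2 or 3 or AcP+AcPb IL-1b array 1 or 2 (adjusted p up to 0.069) and with centred medians (adjusted p = 0.056). Grin3a, the NMDA subunit that lowers calcium flow, read 204, 203 and 232 in CD25 and 329.7, 329 and 309 with both chains, apart at 0.56 ± 0.18 (adjusted p = 0.05 after rounding, under the threshold before it). That call was lost without any 1 of the 6 arrays (adjusted p = 0.081 to 0.13), with centred medians (adjusted p = 0.12), with a generalised log (adjusted p = 0.052), without the dim filter (adjusted p = 0.066) and over probe sets (adjusted p = 0.051). The sign was kept in 20 of 29 subunits (69%), beside 68.2% of all genes. Progenitor markers differed from CD25 in the IL-1b arrays as well, with 2, 6 and 5 of 9 called lower with AcPb, AcP and both, and their part in the subunit differences was not tested.

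**Figure D2:**
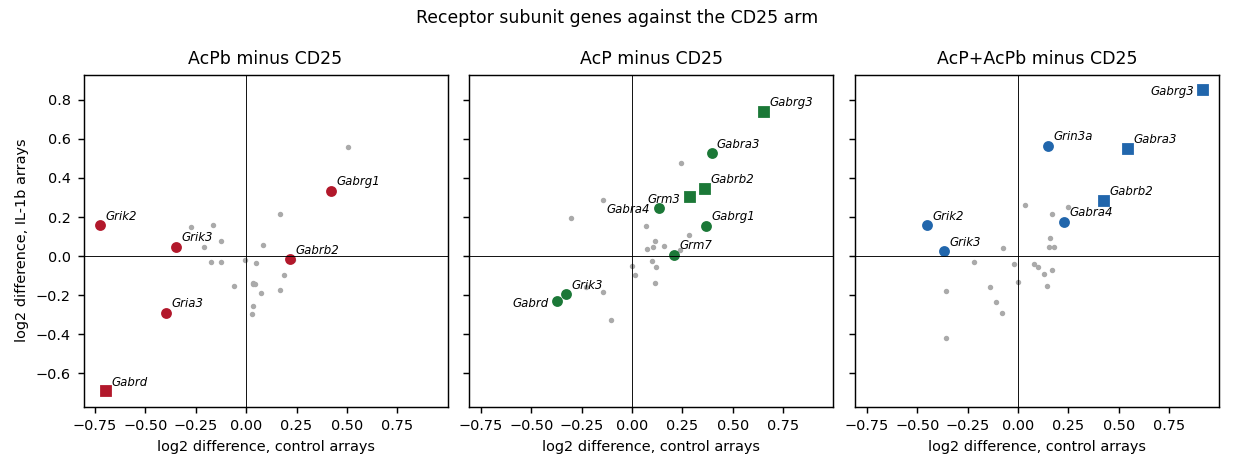
Difference from CD25 in log2 units without IL-1b (horizontal axis) and with IL-1b (vertical axis) for AcPb, AcP and AcP+AcPb, 1 point per receptor subunit, without Grin2d and Grm2. Squares were called in both sets of arrays, circles in 1 and grey dots in neither. Gabrd is the square for AcPb, Gabrb2, Gabrg3 and Grm3 are those for AcP, and Gabrb2, Gabrg3 and Gabra3 those for AcP+AcPb.

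Of 14 further receptor subunit genes outside the set, 8 were analysed and 5 tested, and 0 were called in any response or arm comparison. Their median change in AcPb neurons was 0.14, with Gabra6 at 0.40 ± 0.23 and Gabre at 0.26 ± 0.16 (adjusted p = 0.55 and 0.58), and Grid1 at -0.10.

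Auxiliary and trafficking proteins set where receptors go and how fast they gate. Of 24 listed, 23 were tested, and 0 were called in the AcPb response (median -0.05), where Cacng4, an AMPA auxiliary subunit, gave -0.24 ± 0.079 (adjusted p = 0.28) and Neto1, an auxiliary subunit of kainate receptors, -0.14 ± 0.052 (adjusted p = 0.33). Without IL-1b, 2 were called higher and 2 lower than CD25 with AcPb, 3 and 1 with AcP, and 3 and 1 with both. That is 17.4% in each arm, beside 7.62%, 15.5% and 18.7% of all genes. Cacng5 gave -0.68 with AcPb (adjusted p = 0.00051), -0.45 with AcP (adjusted p = 0.0081) and -0.83 with both (adjusted p = 4.1e-05), all called. Gsg1l, which dampens AMPA receptors, was higher by 0.50, 0.63 and 0.45 (adjusted p = 0.0013, 7.3e-05 and 0.0016), and Shisa6, another AMPA auxiliary protein, fell by 0.46 with AcPb (adjusted p = 0.018). Cnih3, which escorts AMPA receptors, was higher by 0.24 with AcPb (adjusted p = 0.013).

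Of the postsynaptic scaffold and adhesion genes, 23 of 27 were tested, and 0 were called in the AcPb response (median -0.08). Homer1, which links metabotropic receptors to the scaffold, gave -0.21 ± 0.061 (adjusted p = 0.22), Nrxn3 gave -0.21 ± 0.064 (adjusted p = 0.26), and Gphn, the gephyrin that clusters GABA-A receptors, gave -0.13 ± 0.059 (adjusted p = 0.43). Among controls, 0 were called higher and 1 lower with AcPb, 4 and 1 with AcP, and 4 and 2 with both. These are 4.35%, 21.7% and 26.1%, beside 7.62%, 15.5% and 18.7% of all genes. Homer3 gave -0.99 with AcP (adjusted p = 0.0017) and -0.79 with both (adjusted p = 0.0081), and Nlgn1, a postsynaptic adhesion protein, was higher by 0.39 and 0.35 (adjusted p = 0.025 and 0.036).

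Genes of glutamate and GABA synthesis, uptake and release numbered 18 tested of 21. None was called in the AcPb response (median -0.07), where the vesicular glutamate transporters Slc17a7 and Slc17a6 gave -0.27 ± 0.12 and -0.14 ± 0.060 (adjusted p = 0.41 each). Among controls, 3 were called higher and 0 lower with AcPb, 8 and 1 with AcP, and 4 and 2 with both, or 16.7%, 50% and 33.3% beside the same shares of all genes. With AcPb the higher genes were Slc17a6 (0.26, adjusted p = 0.012), Aldh5a1, which degrades GABA (0.29, adjusted p = 0.018), and Glul, the glutamine synthetase of astrocytes (0.23, adjusted p = 0.04). The astrocytic glutamate transporter Slc1a2 was higher by 0.67 with AcP and by 0.55 with both (adjusted p = 0.0011 and 0.0049), and the GABA transporter Slc6a11 by 0.94 and 0.92 (adjusted p = 0.029 each).

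Activity-induced genes numbered 15 tested of 16, and 0 were called in the AcPb response. Egr2 gave 0.83 ± 0.20 (adjusted p = 0.17) and Egr3 0.26 ± 0.087 (adjusted p = 0.28), and Egr2 rose by 2.21 with AcP and by 2.06 with both (adjusted p = 1.2e-06 and 5.4e-06). Among controls 6 of 15 were called lower than CD25 with AcPb and 0 higher, 3 lower and 1 higher with AcP, and 3 lower and 0 higher with both, or 40%, 26.7% and 20% beside the same shares. Fos averaged 772.8 in CD25 controls, 262.9 with AcPb, 276.8 with AcP and 485.6 with both, and it was called lower in all 3 arms (adjusted p = 1.5e-05, 1e-05 and 0.0091). Nptx2, a secreted protein that gathers AMPA receptors, gave -1.26, -1.54 and -1.25 in those arms (adjusted p = 0.0024, 0.00019 and 0.0013).

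The defining neuron markers were present in every group. Excitatory markers summed to 9990 to 10310 in CD25 controls and to 10740 to 11200 with AcPb, where 3 of 9 were called higher, among them Fezf2 at 0.52 (adjusted p = 0.0015). Inhibitory markers summed to 12070 to 12350 and to 11310 to 11990, where 2 of 10 were called lower, Npy at -0.78 (adjusted p = 1.1e-05) and Dlx2 at -0.41 (adjusted p = 0.0085). With AcP 2 inhibitory markers were called higher and 4 lower, and with both 0 higher and 4 lower. Astrocyte markers were also present in every group, at 23520 to 29410 in CD25 controls and 26390 to 29490 with AcPb, and 0 of 10 were called in the AcPb response. Among controls 0 were called higher and 2 lower than CD25 with AcPb, 3 and 3 with AcP, and 3 and 1 with both, with Aldh1l1 lower in all 3 arms and Slc1a2, S100b and Aldoc higher with AcP and with both. Oligodendrocyte lineage markers summed to 5034 to 7103 and to 6681 to 7698, with 1 of 8 called higher. Microglia markers were dim, with 4 of 10 tested, Aif1 and C1qa at or below 0 in every group, and Tyrobp called higher with AcPb at 0.79 (adjusted p = 0.047). Endothelial, mural and fibroblast markers summed to 1926 to 2615 in CD25 controls, 1065 to 1216 with AcP and 1103 to 1501 with both, with 1, 3 and 3 of 7 called lower with AcPb, AcP and both and Pecam1 at or below 0 in every group. Of 8 reference genes 0 were called with AcPb, 2 higher and 1 lower with AcP, and 1 higher and 1 lower with both.

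The remaining 9 subunits were called in none of the 13 comparisons. Their group means spanned 0.16 log2 units for Grm5 to 0.46 for Grik4 and 0.48 for Grik5, and 1.84 for the dim Grm2. Over the 24 arrays Gria1 read 1417 to 2160, Grik4 30.8 to 89.6, Grik5 503.9 to 988 and Grm4 342.9 to 442. Grm5 read 1181 to 1743, Grm8 31.1 to 85.6, Grm2 -83.2 to 98.7, Gabra2 1189 to 1503 and Gabbr1 3543 to 4611.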

How the data were processed

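Per the labels' protocols, RNA was amplified and biotin-labelled by the Eberwine method, and it was measured on 24 one-colour arrays. The deposited intensity values are linear, with a probe set summary and a scaling not given in the sources used here. Of 45077 probe sets, 40 controls were left out. Of the others, 34945 had 1 gene symbol in the platform annotation, 932 several and 9160 none. Values below 0 (16.4% to 18.2% of an array) were set to 0, 16 was added and log2 taken. Testing required a gene to exceed the array's 40th percentile on at least 3 arrays. The model was fitted with limma 3.58.1 in R 4.3.3 (lmFit, eBayes) on 24 arrays with 8 group means, and p-values were adjusted by Benjamini-Hochberg over 14217 genes within each comparison. Of 13 comparisons, 10 were planned and the 3 between arms in IL-1b arrays were added after seeing the data. The fit was tested on simulated data. No arrays were identical.

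The subunits and gene lists were chosen with earlier results of these data known. All subunits were named, with every array for called ones, for the 10 of lowest unadjusted p in the AcPb response and for the 3 of lowest p elsewhere; for the gene lists, those called and up to 3 of lowest p in the AcPb response, of which some are given here. The median SD was highest in the AcP controls (0.165 log2 units) and 0.0896 in the tightest group. Alternatives were another constant (64), a generalised log, quantile normalization, centred medians, no dim filter or the 60th percentile, array weights, an intensity trend, only the arrays compared, the replicate number or the array code as a block, other probe set rules, and each array left out.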

Additional observations from a re-analysis of the deposited data

How the results depend on the processing

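In the 4 IL-1b responses and the 3 response differences, 0 subunits were called under each alternative and without any 1 array, except with array weights, which called 4 in AcPb neurons. Among controls, the 6 calls with AcPb became 3 with centred medians, 3 with only the arrays compared, 3 with the mean of a gene's probe sets, and 3 to 5 without 1 array. The 7 calls with AcP became 3 with centred medians, 0 with only the arrays compared, and 3 to 8 without 1 array. The 6 calls with both chains became 3 to 5 without 1 array. In IL-1b arrays, the 1 call with AcPb became 2 with quantile normalization, centred medians, the 60th percentile or an intensity trend, 4 with array weights, 0 with only the arrays compared, 3 with the mean of probe sets and 1 to 2 without 1 array. The 5 calls with AcP became 2 with only the arrays compared and 1 to 5 without 1 array, and the 4 with both became 2 with centred medians, 2 with only the arrays compared and 1 to 4 without 1 array. Differences of AcP+AcPb from CD25 could not be fitted with the array code as a block, because arm and code coincide. The cause was not tested, beyond the fewer arrays in some of these fits.

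Counts over all genes (or over all probe sets, where each is tested by itself) moved by more than 1.5 times, with all arrays kept. In the responses they ran from 0 with only the arrays compared to 180 with array weights with AcPb (1 as reported), from 32 to 119 with AcP (77) and from 10 to 97 with both (65). They ran from 0 to 24 in the response difference from CD25 (3). Among controls they ran from 701 to 2077 with AcPb (1083), from 548 with only the arrays compared to 3039 with every probe set with AcP (2209), and from 1669 to 4051 with both (2664). In IL-1b arrays they ran from 92 to 802 with AcPb (514), from 643 to 2401 with AcP (1632) and from 413 to 3204 with both (1821). Without 1 array they ran from 39 to 191 in the AcP response, 29 to 121 in that with both and 1 to 4 in that with AcPb, and from 1 to 11 in the difference from CD25. Among controls they ran from 667 to 768, 1499 to 3241 and 1587 to 2404 with AcPb, AcP and both, and in IL-1b arrays from 250 to 573, 1022 to 1558 and 1043 to 1788. Quantile normalization moved the share of higher calls over all genes from 31% to 41% among AcPb controls. Centring moved it from 23.2% to 11.4% with AcPb and from 34.9% to 23.6% with both in IL-1b arrays. Both moved it from 10.8% to 0% in the response difference from AcP, where centring shifted the median of all genes to -0.107. The 1 higher call of 3 in the difference from CD25 was lost with centring.

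The mean of a gene's probe sets turned 4 of 59 named changes: Gabrb1 in the AcPb response to 0.032, Grm7 in the AcP response to 0.15, Grm7 among AcP and CD25 controls to -0.071 and Gabrd there to 0.14. Replicate numbers gave no clear sign of pairing over the arms: correlations of same-numbered deviations ran from -0.13 to 0.24, and 2 of 12 pairs were over 0.1. With AcPb they were 0.03 to 0.11, beside -0.085 to 0.047 for unlike numbers. With CD25 they were 0.063 to 0.24, with AcP -0.12 to -0.019 and with both -0.13 to 0.036. Pairing is therefore not excluded. With the replicate number as a block, 7, 8 and 7 subunits were called among controls with AcPb, AcP and both, 0 in each response and difference, and 3, 5 and 4 in IL-1b arrays. Signal over background limits the dim subunits Grin2c, Grin2d, Grm2, Grik4, Grm8 and Grin2a. Expression of the introduced chains was not examined here.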
